A study of Homo sapiens with 6 samples.

Results

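The genes of the cytosolic ribosomal proteins were followed in HFF, a line of human foreskin fibroblasts. Members were chosen by symbol alone, as RPL or RPS followed by a number and an optional A, X, L or L1, or as RPLP0 to RPLP2 or RPSA. The rule took 83 of the 59050 entries of the table, 51 for the large subunit and 32 for the small subunit. Of these, 76 were core genes and 7 were paralogues, copies whose symbols end in L or L1. RPL6 is not analysed here, and genes such as FAU, RPL36AL and RACK1, which also encode ribosomal proteins, fall outside the symbol rule and are given separately.

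All cells carried pLNC ER:RAS (G12V), a fusion through which 4-hydroxytamoxifen (4-OHT) switches on oncogenic H-RAS. They had been infected at about passage 18 and selected in 200 µg/ml neomycin. The first group received 100 nM 4-OHT and was harvested after a week, in oncogene-induced senescence per the labels, and the other group is labelled DMSO, the solvent. Each group had 3 libraries. No cells without the fusion are among them, so the response to the agent and the response to H-RAS cannot be told apart. Resistant cells were selected as clones, per the labels, and nothing says how many clones the line holds or that the libraries came from separate cultures, so p-values measure the spread between these libraries only.

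A ribosome is built from a large and a small subunit, each of ribosomal RNA and many proteins, and most of the proteins enter in a single copy. Their mRNAs are among the most abundant of any cell, and nearly all begin with a C followed by further pyrimidines, the 5′ terminal oligopyrimidine tract. Through this tract LARP1 and the kinase complex mTORC1 control how strongly the mRNAs are translated. RPL5 and RPL11 also bind MDM2, and proteins such as RPS19 and RPL35A are known from Diamond-Blackfan anaemia, in which their loss impairs red cell formation.

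As deposited, most ribosomal protein mRNAs were lower in 4-OHT than in DMSO, and by little. Together the 83 genes made up 8.54, 8.56 and 8.41% of the transcripts in the 4-OHT libraries, against 9.80, 9.77 and 9.88% in the DMSO libraries. All 4-OHT libraries lay below all DMSO libraries, and the summed level fell by 13.4% as deposited and fell by 5.81% with median-of-ratios scaling between libraries. TPM are shares of a library, so the amount of these mRNAs per cell was not measured, and in bulk RNA fewer cells with a transcript cannot be told apart from less of it per cell. Of 81 members tested, 50 were lower (61.7%), 2 were higher (2.47%) and 29 did not pass. The test was limma on log2(TPM + 1), with a Benjamini-Hochberg adjusted p under 0.05 over all 15272 genes that averaged at least 1 TPM in the 6 libraries. Over all these genes 49.6% were called, 29.9% lower and 19.8% higher, so that lower calls were more frequent among the members as deposited, which did not hold with median-of-ratios scaling. All 4-OHT libraries lay below all DMSO libraries in 57 members and above them in 3, and the groups overlapped in 21, whereas over all genes tested 35.2% lay below and 23.8% above. The median log2 fold change was -0.19 for the members and -0.09 for all genes tested. Log2 fold changes are 4-OHT minus DMSO throughout, and on the log2(TPM + 1) scale they understate the change of low genes.

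How many members passed depended on the scaling between libraries. With median-of-ratios scaling, which moved log2 fold changes up by a median of 0.113, 19 members were lower (23.5%) and 6 higher (7.41%). Over all genes the shares were then 23.5% lower and 26.5% higher, so the share of lower calls among the members was that of all genes, and for the small subunit it was below it, at 15.6%. With quantile normalization, which moved them up by 0.130, 37 were lower (45.7%) and 3 higher (3.70%), against 23.6% lower and 23.9% higher over all genes. Relative to the median of all genes, the median of the members lay 0.09 log2 units lower as deposited (-0.09), 0.08 lower with median-of-ratios scaling (-0.08) and 0.15 lower with quantile normalization (-0.15). The median of the members thus lay below that of all genes under the 3 scalings, while the excess of lower calls was present under 2 of them. In 18 members the lower call held in all 15 alternative fits as well, among them RPL22, RPL5, RPL32, RPSA, RPL14, RPL39L, RPS23, RPL26L1, RPS6, RPL12, RPL27A, RPS3, RPLP0, RPL21, RPL3, RPL36A and RPL10. How many of all genes kept a lower call in all fits was not counted, so the 18 cannot be called many or few.

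**Figure D1:**
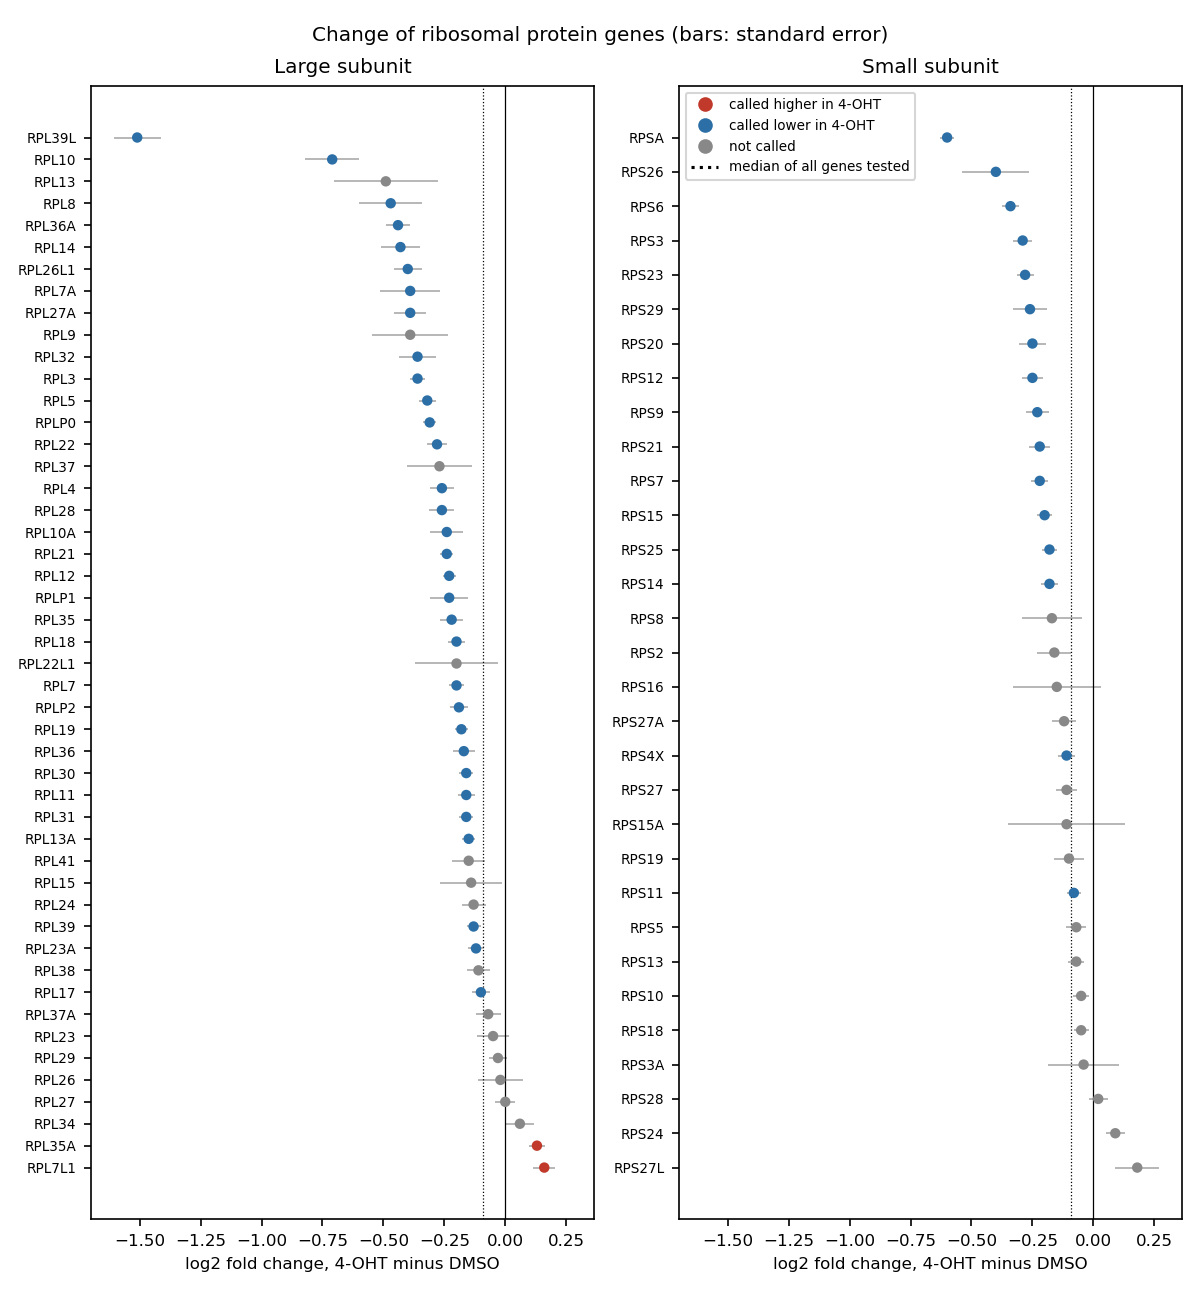
Log2 fold change (4-OHT minus DMSO, x axis) of 79 of the 81 tested members, large subunit left and small subunit right, with bars of 1 standard error, blue where called lower, red where called higher and grey where not called; the dotted line is the median of all genes tested (-0.09). RPL39L stands alone at -1.51, and over all 81 tested members 75 values lie below 0.

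TPM keep no read depth, so the libraries were compared only by their values. Their totals were 998367 to 998843 TPM, near equal by the definition of TPM, which says nothing about quality. The correlation of log2 values was 0.9843 to 0.9855 within groups and 0.9280 to 0.9328 between them. HRAS, the introduced gene together with the cells' own copy, averaged 1281 ± 51.1 TPM in 4-OHT and 935 ± 24.7 TPM in DMSO (SD, n = 3 each). All 9 fibroblast markers were present, and they summed to 7622 to 7878 TPM in 4-OHT, against 10029 to 10152 TPM in DMSO, with 7 lower and 2 higher. Of the markers of other cells, none of 5 for keratinocytes and none of 4 for endothelium reached a mean of 1 TPM, while 1 of 5 did for immune cells, 1 of 4 for melanocytes and 2 of 4 for smooth muscle. Of these, RGS5 of smooth muscle and pericytes averaged 24.6 TPM in 4-OHT and 3.30 TPM in DMSO and CD14 of immune cells 5.24 TPM in 4-OHT and 2.14 TPM in DMSO, both called higher, and PMEL of melanocytes 0.49 TPM in 4-OHT and 1.66 TPM in DMSO, called lower. The lists summed to 92.8 to 99.0 TPM in 4-OHT and 73.8 to 79.5 TPM in DMSO for smooth muscle, 4.44 to 10.4 TPM and 2.29 to 4.45 TPM for immune cells, and 0.647 to 1.01 TPM and 1.39 to 2.64 TPM for melanocytes. CSPG4, the other smooth muscle gene above 1 TPM, averaged 71.5 TPM in 4-OHT and 72.6 TPM in DMSO and was not called. KRT1, TYR and DCT were at 0 in all libraries. Of 4 genes listed for HEK293, the packaging cells of the virus, NEFM and NEFL were higher in 4-OHT, and the list summed to 26.3 to 28.9 TPM, against 0.792 to 1.85 TPM in DMSO. The others on that list were too low to be tested. LIN28B averaged 0.096 TPM in 4-OHT and 0 in DMSO, and GATA3 0.66 TPM in 4-OHT and 0.111 TPM in DMSO. The part of these differences in the levels of the ribosomal protein genes was not tested.

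Both subunits moved in the same direction. The large subunit genes summed to 49158, 48899 and 48707 TPM in 4-OHT, against 57754, 56932 and 57819 TPM in DMSO, and their sum fell by 14.9%, and it fell by 7.49% with median-of-ratios scaling. The small subunit genes summed to 36099, 36552 and 35288 TPM in 4-OHT, against 40056, 40634 and 40832 TPM in DMSO, and their sum fell by 11.2%, and it fell by 3.42% with median-of-ratios scaling. The sum of large over small was 1.36, 1.34 and 1.38 in 4-OHT, against 1.44, 1.40 and 1.42 in DMSO. These ratios did not overlap between the groups, and all 3 were lower in 4-OHT. Of 49 large subunit genes tested, 33 were lower (67.3%) and 2 higher, with a median log2 fold change of -0.20. Of 32 small subunit genes 17 were lower (53.1%), with a median of -0.17. No small subunit gene was called higher by limma, and 0 had an unadjusted p under 0.05 in that direction. With median-of-ratios scaling the lower calls were 14 for the large (28.6%) and 5 for the small subunit (15.6%), and 3 small subunit genes were higher. With quantile normalization they were 22 and 15, with 1 small subunit gene higher. The difference in calls between the subunits was not tested.

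**Figure D2:**
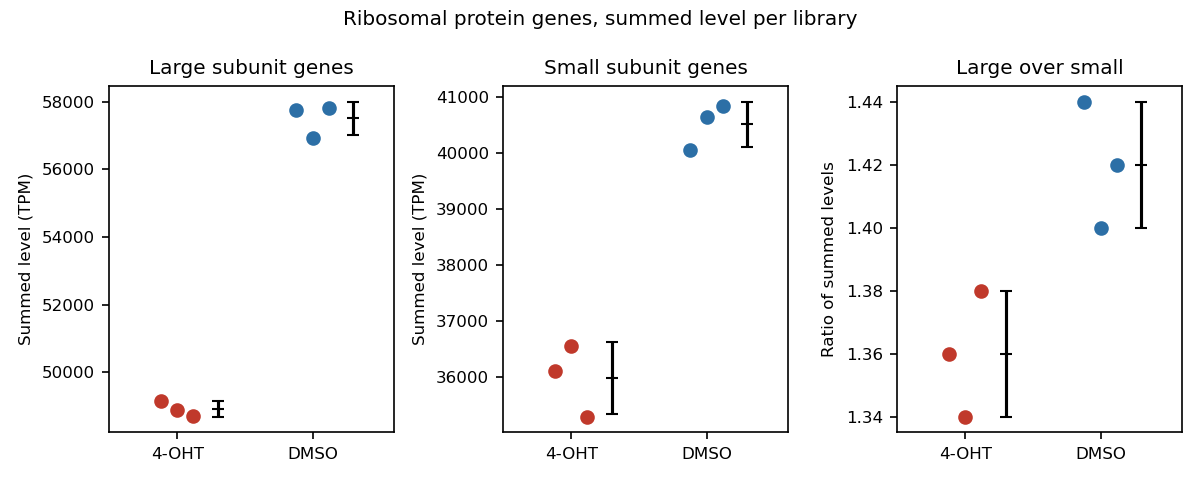
Summed TPM of the 51 large subunit genes (left), of the 32 small subunit genes (middle) and their ratio (right) in each library, with the mean and SD of each group in black; the y axes do not start at 0. In all 3 panels every 4-OHT library lies below every DMSO library, at 48707 to 49158 TPM against 56932 to 57819 TPM for the large subunit.

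**Figure D3:**
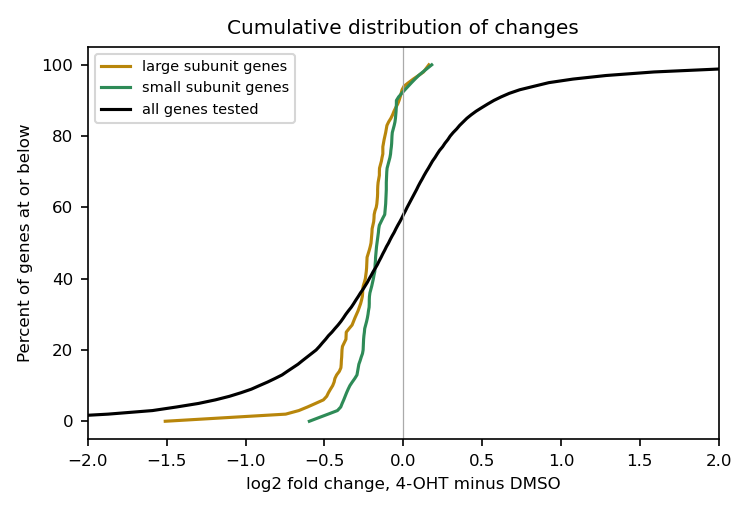
Cumulative share of genes (y axis, percent) at or below each log2 fold change (4-OHT minus DMSO, x axis) for the large subunit genes, the small subunit genes and all genes tested. The curves of both subunits are steep, with quartiles of all members at -0.28 and -0.11, while the curve of all genes has its quartiles at -0.45 and 0.22.

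By age in evolution, 24 of 33 tested core genes found in all domains of life were lower (72.7%, median -0.22), against 24 of 43 genes found in eukaryotes but not in bacteria (55.8%, median -0.17). Among the large subunit genes of the older class, 15 of 18 were lower (83.3%). With median-of-ratios scaling 10 of 33 (30.3%) and 7 of 43 (16.3%) were lower, and with quantile normalization 18 (54.5%) and 17 (39.5%). Over all genes the share of lower calls was 29.9% as deposited, 23.5% with median-of-ratios scaling and 23.6% with quantile normalization. With median-of-ratios scaling the younger class thus lay below the share of all genes. The older class had the larger share of lower calls under each of the 3 scalings, and this difference was not tested.

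The sequences at the transcription start of genes that differ in response show how widely the pyrimidine tract is shared. RefSeq start windows (GRCh38.p14) were matched for 66 of the 83 members. In the sequences below, 30 bases precede the first transcribed base and 20 follow from it, and capitals mark an unbroken run of C and T that starts with C at the first base. The set holds genes called lower as deposited (RPSA, RPL36A and, except with median-of-ratios scaling or without a variance trend, RPL13A). It also holds genes called higher (RPL35A, RPL7L1) and the paralogues RPL22L1, RPL26L1 and RPS27L with their parents. RPL39 is shown without RPL39L, which had no matched window, and RPL7L1 is shown without RPL7.
RPSA: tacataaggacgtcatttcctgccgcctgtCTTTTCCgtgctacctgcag
RPL36A: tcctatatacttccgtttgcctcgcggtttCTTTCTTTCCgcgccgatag
RPL13A: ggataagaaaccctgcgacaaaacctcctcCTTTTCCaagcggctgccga
RPL35A: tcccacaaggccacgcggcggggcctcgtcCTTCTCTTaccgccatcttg
RPL7L1: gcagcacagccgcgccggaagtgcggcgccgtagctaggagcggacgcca
RPL22: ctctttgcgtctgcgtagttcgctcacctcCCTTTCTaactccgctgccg
RPL22L1: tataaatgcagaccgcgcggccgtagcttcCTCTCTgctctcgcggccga
RPL26: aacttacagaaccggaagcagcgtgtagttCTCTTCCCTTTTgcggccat
RPL26L1: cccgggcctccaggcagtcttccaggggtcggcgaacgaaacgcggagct
RPL39: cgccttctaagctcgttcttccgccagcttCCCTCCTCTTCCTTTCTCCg
RPS27: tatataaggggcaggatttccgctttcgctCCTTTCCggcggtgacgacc
RPS27L: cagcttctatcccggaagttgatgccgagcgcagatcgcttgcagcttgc
On the plus strand these stand at chr3:39406690-39406739 (RPSA), chrX:101390981-101391030 (RPL36A), chr19:49487578-49487627 (RPL13A), chr3:197950160-197950209 (RPL35A), chr6:42879586-42879635 (RPL7L1), chr5:172958699-172958748 (RPL26L1) and chr1:153990732-153990781 (RPS27). On the minus strand they stand at chr1:6199576-6199625 (RPL22), chr3:170870176-170870225 (RPL22L1), chr17:8383174-8383223 (RPL26), chrX:119791611-119791660 (RPL39) and chr15:63157458-63157507 (RPS27L).

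A run of at least 5 letters stood in 47 of the 66 members (71.2%), in 46 of 61 core genes (75.4%) and in 1 of 5 paralogues, RPL22L1. Over all protein-coding genes with a window it stood in 988 of 15843 (6.24%). The run spanned 7 letters in RPSA, 10 in RPL36A and 8 in RPL35A, so it was present in genes that fell and in the core gene that rose. Core genes with the run had 28 of 46 lower and 1 higher, with a median log2 fold change of -0.18. Core genes without it had 11 of 15 lower and 0 higher, with a median of -0.22 (limma, as above). As deposited, the share of lower calls was thus no larger among genes with the run, and the difference was not tested. Over all genes tested 29.9% were lower as deposited. This split was not counted under the other scalings, on which the number of lower calls depended. The run was counted only from the first base of a RefSeq start. A gene whose start is annotated some bases away thus counts as without it, so the comparison cannot separate mRNAs with the tract from mRNAs lacking it. Of other letters searched on both strands of the windows of 250 bases before and 50 after the start, CCGGAAG stood in 36.4% of members and 16.5% of all genes. AAGATGG stood in 13.6% of members and 7.90% of all genes, GGGCGG in 59.1% and 64.3%, and TATAAA in 10.6% and 12.4%. These are matches of letters, not sites at which a factor was measured.

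Among the core genes that fell most were RPL10, RPSA, RPL8 and RPL36A. RPL10 (chrX:154389955-154409168), a late-joining protein of the large subunit near its catalytic centre, stood at 1008, 1329 and 1353 TPM in 4-OHT, against 2101, 1997 and 1908 TPM in DMSO. Its groups were well apart, although 4-OHT replicate 1 lay below the other 2 libraries of that group. The log2 fold change was -0.71 (SE 0.111, limma adjusted p = 0.00157). RPSA (chr3:39406689-39412542), a small subunit protein also known as a laminin receptor, stood at 1228, 1210 and 1175 TPM in 4-OHT, against 1817, 1832 and 1812 TPM in DMSO. Its libraries were tight in both groups and far apart between them, with a log2 fold change of -0.60 (SE 0.0297, limma adjusted p = 5.94e-06). RPL36A (chrX:101390824-101396154), a large subunit protein, stood at 640, 598 and 670 TPM in 4-OHT, against 863, 835 and 892 TPM in DMSO. Its groups did not overlap, and the log2 fold change was -0.44 (SE 0.05, limma adjusted p = 0.000335).

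The call of RPL8 was lost in some alternatives. RPL8 (chromosome 8, 144789765 to 144792587), which lies near the catalytic centre, stood at 985, 1418 and 1358 TPM in 4-OHT, against 1739, 1708 and 1704 TPM in DMSO. Here replicate 1 of 4-OHT was the lowest of the group. The log2 fold change was -0.47 (limma adjusted p = 0.0189), and it missed the threshold in 4 of 15 alternatives, among them the fits that left out DMSO replicate 1 (limma adjusted p = 0.0537) or replicate 3 of that group (limma adjusted p = 0.0506). Without 4-OHT replicate 1 it was -0.31 (limma adjusted p = 0.00108).

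Other core genes that kept the lower call in all 15 alternatives changed less, and they are named here after their values were seen. RPL14 stood at 436, 427 and 456 TPM in 4-OHT, against 529, 595 and 663 TPM in DMSO, with a log2 fold change of -0.43 (limma adjusted p = 0.0035). RPL27A stood at 306, 344 and 326 TPM in 4-OHT, against 430, 395 and 459 TPM in DMSO (log2 fold change -0.39, limma adjusted p = 0.00242). The groups of both genes were apart, with the wider spread in DMSO. RPL12, part of the base of the stalk, stood at 1555, 1569 and 1575 TPM in 4-OHT, against 1836, 1855 and 1824 TPM in DMSO (log2 fold change -0.23, limma adjusted p = 0.00036). RPS3, at the entry of the mRNA channel, stood at 836, 828 and 772 TPM in 4-OHT, against 1012, 980 and 994 TPM in DMSO (log2 fold change -0.29, limma adjusted p = 0.000818). RPS23, at the decoding centre, stood at 384, 374 and 383 TPM in 4-OHT, against 451, 462 and 474 TPM in DMSO (log2 fold change -0.28, limma adjusted p = 0.000527). The libraries of RPL12, RPS3 and RPS23 did not overlap between groups.

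RPL35A was the core gene called higher. RPL35A (chr3:197949980-197956610) stood at 968, 948 and 1006 TPM in 4-OHT, against 895, 878 and 903 TPM in DMSO. The groups did not overlap but lay close, with a log2 fold change of 0.13 (SE 0.034, limma adjusted p = 0.0184), and 4 of 15 alternatives did not call it. Leaving out DMSO replicate 2 (limma adjusted p = 0.0599) or 4-OHT replicate 3 (limma adjusted p = 0.052) ended the call. RPS24, also known from Diamond-Blackfan anaemia and named here after its values were seen, stood at 1860, 1868 and 1878 TPM in 4-OHT, against 1687, 1729 and 1854 TPM in DMSO. Its libraries were all above those of DMSO, the limma adjusted p was 0.101 as deposited, and it was called higher with median-of-ratios scaling (log2 fold change 0.21) and quantile normalization (0.15). With median-of-ratios scaling, RPL34, RPS27L and RPS28 joined RPL35A, RPL7L1 and RPS24 as higher.

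Of the P stalk, which recruits elongation factors to the large subunit, all 3 genes were called lower as deposited, and RPLP0 alone under either other scaling. RPLP0 stood at 2244, 2290 and 2271 TPM in 4-OHT, against 2849, 2758 and 2808 TPM in DMSO, with a log2 fold change of -0.31 (limma adjusted p = 0.000109). RPLP2 stood at 1116, 1139 and 1101 TPM in 4-OHT, against 1314, 1228 and 1279 TPM in DMSO (log2 fold change -0.19, limma adjusted p = 0.00414), and was not called with median-of-ratios scaling (-0.07, limma adjusted p = 0.185) or quantile normalization (-0.10, limma adjusted p = 0.0968). RPLP1 stood at 801, 864 and 730 TPM in 4-OHT, against 982, 852 and 978 TPM in DMSO. The groups of RPLP1 overlapped in 1 pair of libraries, and its call (log2 fold change -0.23, limma adjusted p = 0.0432) was lost in 9 of 15 alternatives, whereas that of RPLP0 was kept in all. For RPLP1 the adjusted p by limma was 0.0891 to 0.124 without 4-OHT replicate 1, 4-OHT replicate 3, DMSO replicate 1 or DMSO replicate 3.

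The pair that binds 5S rRNA and MDM2 was lower too. RPL5 stood at 1123, 1103 and 1067 TPM in 4-OHT, against 1414, 1357 and 1351 TPM in DMSO, with a log2 fold change of -0.32 (limma adjusted p = 0.000259). RPL11 stood at 1139, 1134 and 1084 TPM in 4-OHT, against 1221, 1264 and 1273 TPM in DMSO (log2 fold change -0.16, limma adjusted p = 0.00659). Neither gene's groups overlapped, but with median-of-ratios scaling RPL11 was at -0.04 (limma adjusted p = 0.37) while RPL5 was still called at -0.20. MDM2, the ubiquitin ligase that the pair can block, was higher in 4-OHT (log2 fold change 0.36).

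Of 3 small subunit genes with known roles, RPS6 was called lower, while RPS19 and RPS27A were not, and the difference between them was not tested. RPS6, the substrate from which the S6 kinases take their name, stood at 1375, 1393 and 1346 TPM in 4-OHT, against 1719, 1698 and 1807 TPM in DMSO (log2 fold change -0.34, limma adjusted p = 0.000189). Its groups were well apart, and the lower call was kept in all 15 alternatives. RPS19, the gene most often affected in Diamond-Blackfan anaemia, stood at 1007, 1034 and 944 TPM in 4-OHT, against 1161, 1015 and 1035 TPM in DMSO. Its groups overlapped and its log2 fold change of -0.10 did not pass (limma adjusted p = 0.196). RPS27A, made as a fusion with ubiquitin, stood at 1023, 948 and 910 TPM in 4-OHT, against 1045, 1005 and 1074 TPM in DMSO. Its groups overlapped by 1 pair of libraries, and its value of -0.12 did not pass either (limma adjusted p = 0.0922), except without 4-OHT replicate 1 (-0.16, adjusted p = 0.0248) and in no other alternative.

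Levels differed far more between members than between groups. In mean TPM, a value per transcript length, the core genes ran from 192 to 3011 in 4-OHT (median 1104), against 230 to 3380 in DMSO (median 1265). The highest was 15.7 times the lowest in 4-OHT and 14.7 times in DMSO. The top small subunit gene, RPS2, stood at 2965, 3022 and 3045 TPM in 4-OHT, against 3791, 3173 and 3177 TPM in DMSO. All 4-OHT libraries lay below, but 1 DMSO library stood far above the other 2, and the log2 fold change of -0.16 did not pass (limma adjusted p = 0.0921). RPL13A, the top large subunit gene, stood at 2546, 2529 and 2591 TPM in 4-OHT, against 2844, 2813 and 2861 TPM in DMSO (log2 fold change -0.15, limma adjusted p = 0.00278). The call ended with median-of-ratios scaling (-0.03, limma adjusted p = 0.395) and without a variance trend (limma adjusted p = 0.0588). RPL7A, another abundant large subunit gene, stood at 2355, 1858 and 1829 TPM in 4-OHT, against 2843, 2808 and 2248 TPM in DMSO. Its groups overlapped at 1 library of each, and its call (log2 fold change -0.39, limma adjusted p = 0.0354) was lost in 8 of 15 alternatives. Among them were the fits without 4-OHT replicate 2 or 3 or DMSO replicate 1 or 2 (limma adjusted p 0.102 to 0.107). The call was also lost with median-of-ratios scaling (limma adjusted p = 0.124) and quantile normalization (limma adjusted p = 0.0515). The other members with the highest levels in the small subunit were RPS18 (-0.05, limma adjusted p = 0.189) and RPS3A (-0.04, limma adjusted p = 0.827). High level did not go with size of change: over 76 core genes the Spearman correlation of log2 fold change with DMSO level was -0.00 and Pearson's r was -0.05. With coding length they were -0.27 and -0.29. These are across genes that share libraries, so no p is given.

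Each paralogue was less abundant than its parent. As a percentage of the parent, RPL39L and RPL26L1 lay lower in all 4-OHT libraries than in all DMSO libraries. RPS27L and RPL7L1 lay higher, and RPL22L1 overlapped. With 3 libraries against 3, the exact permutation test of a paralogue against its parent cannot pass the threshold, so it cannot decide whether these percentages changed. RPL39L (chr3:187120948-187180908), a copy of RPL39 known in mouse from male germ cells, stood at 16.6, 19.7 and 15.7 TPM in 4-OHT, against 50.0, 48.2 and 54.9 TPM in DMSO. All 4-OHT libraries lay far below all DMSO libraries, and the log2 fold change of -1.51 (SE 0.0962, limma adjusted p = 1.85e-05) was the largest in size among the tested members. RPL39 (chrX:119786504-119791643), which lines the exit tunnel of the large subunit, stood at 1000, 1014 and 1007 TPM in 4-OHT, against 1119, 1089 and 1098 TPM in DMSO, with a log2 fold change of -0.13 (limma adjusted p = 0.00769). With median-of-ratios scaling RPL39 was at -0.01 (limma adjusted p = 0.817) and RPL39L at -1.39. As a percentage of RPL39, RPL39L stood at 1.66, 1.94 and 1.56 in 4-OHT, against 4.46, 4.43 and 5.01 in DMSO. The difference of the log2 ratios was -1.38, with an exact permutation p of 0.1, 2-sided, the smallest that 3 against 3 can give, or 0.133 adjusted over the 4 pairs tested. The coding sequences share 145 of 153 bases (94.8%), so reads could be split between the 2 genes.

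RPL26L1 (chr5:172958729-172969771), a near copy of RPL26, stood at 89.6, 94.9 and 90.6 TPM in 4-OHT, against 116, 118 and 130 TPM in DMSO. It fell in every alternative, with a log2 fold change of -0.40 (SE 0.0572, limma adjusted p = 0.00111). RPL26, its parent in the large subunit, stood at 1532, 1504 and 1546 TPM in 4-OHT, against 1352, 1519 and 1795 TPM in DMSO. The 4-OHT libraries of RPL26 lay inside the wide range of DMSO, and its log2 fold change of -0.02 did not pass (limma adjusted p = 0.902) and turned to 0.10 with median-of-ratios scaling and 0.09 with quantile normalization. RPL26L1 was 6.01 ± 0.265% of RPL26 in 4-OHT and 7.85 ± 0.669% in DMSO (SD, n = 3 each), with no overlap, and the exact permutation p was 0.1, 2-sided (0.133 adjusted). The coding sequences are 84.1% identical.

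RPS27L (chr15:63125872-63158021), the copy of the small subunit gene RPS27, stood at 199, 201 and 195 TPM in 4-OHT, against 151, 182 and 195 TPM in DMSO. The groups overlapped at the highest DMSO library, and the log2 fold change of 0.18 did not pass (SE 0.0899, limma adjusted p = 0.14). With median-of-ratios scaling it was called higher at 0.30 (limma adjusted p = 0.0274). RPS27 stood at 1219, 1146 and 1244 TPM in 4-OHT, against 1316, 1316 and 1255 TPM in DMSO, all below but with a log2 fold change of -0.11 that did not pass (limma adjusted p = 0.0682) and that was 0.01 with median-of-ratios scaling. The paralogue was 16.5 ± 0.976% of its parent in 4-OHT and 13.6 ± 2.05% in DMSO (SD, n = 3 each), with no overlap between the libraries. The exact permutation p of that log2 difference of 0.29 was 0.1, 2-sided (0.133 adjusted).

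RPL22L1 (chr3:170864875-170870483) stood at 150, 156 and 183 TPM in 4-OHT, against 164, 160 and 248 TPM in DMSO. Its groups overlapped, 1 DMSO library stood far above the rest, and the log2 fold change was -0.20 (limma adjusted p = 0.366). RPL22, its parent, stood at 340, 344 and 348 TPM in 4-OHT, against 423, 400 and 434 TPM in DMSO, and was lower at -0.28 (limma adjusted p = 0.00105) in every alternative. RPL22L1 was 47.4 ± 4.65% of RPL22 in 4-OHT and 45.3 ± 10.2% in DMSO (SD, n = 3 each; exact permutation p = 0.6, 2-sided). It was the paralogue closest to its parent in level, in both groups.

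RPL7L1 (chr6:42879618-42889925), a more distant relative of RPL7 with 58.3% identical coding bases, stood at 105, 98.4 and 104 TPM in 4-OHT, against 91.6, 90.0 and 92.3 TPM in DMSO. It was called higher at 0.16 (SE 0.0445, limma adjusted p = 0.0197), and 4 of 15 alternatives did not call it. Those included the fits without 4-OHT replicate 1 (limma adjusted p = 0.0634), 4-OHT replicate 3 (adjusted p = 0.0592) and DMSO replicate 2 (adjusted p = 0.0611). RPL7, its parent, stood at 1361, 1382 and 1332 TPM in 4-OHT, against 1555, 1563 and 1578 TPM in DMSO and was lower at -0.20 (limma adjusted p = 0.000988). The groups of both genes were apart, in opposite directions, but RPL7 did not pass with median-of-ratios scaling (-0.08, limma adjusted p = 0.0516). RPL7L1 was 7.54 ± 0.364% of RPL7 in 4-OHT and 5.83 ± 0.0678% in DMSO (SD, n = 3 each), with no test of this pair. RPL3L, known from heart and skeletal muscle, was listed at 0 in 4-OHT and at 0.161, 0.168 and 0.159 TPM in DMSO, and was too low to be tested. Its parent RPL3, at the catalytic centre, stood at 1877, 1942 and 1896 TPM in 4-OHT, against 2503, 2432 and 2412 TPM in DMSO (log2 fold change -0.36, limma adjusted p = 7.04e-05). RPL10L, known from testis, was listed at 0.239 TPM in 1 library of 4-OHT and at 0 in the others, and was not tested.

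**Figure D4:**
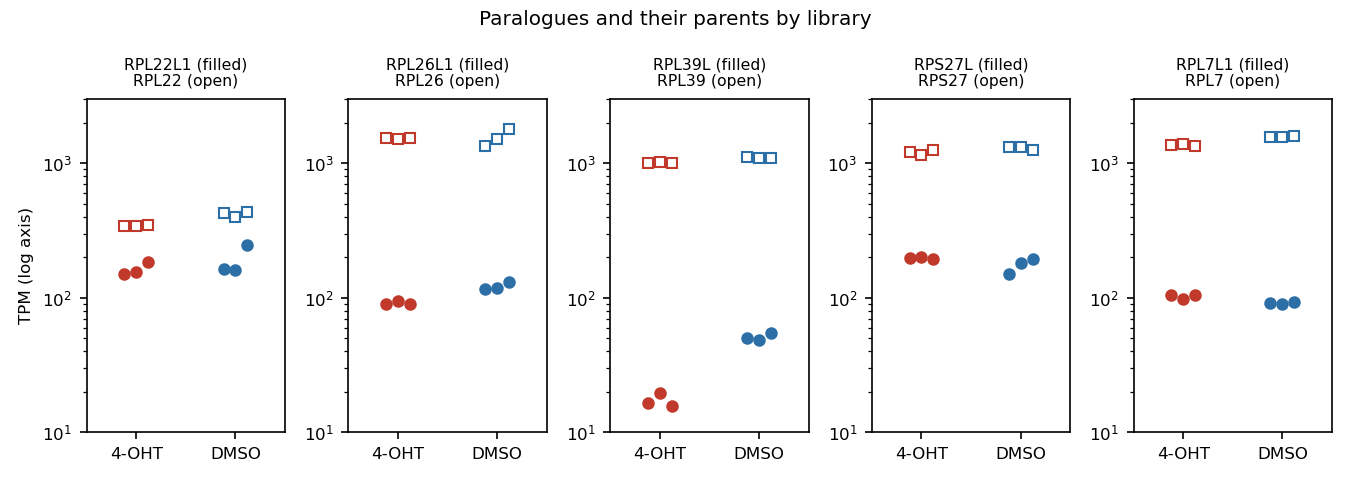
TPM (log axis) of 5 paralogues (filled circles) and their parents (open squares) in each library, 4-OHT left and DMSO right. RPL39L stands at 15.7 to 19.7 TPM in 4-OHT, below its 48.2 to 54.9 TPM in DMSO, while RPL39 stays between 1000 and 1119 TPM.

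The spread between libraries was small for most members and wide for some. The median coefficient of variation over the 81 tested members was 3.2% in 4-OHT and 3.29% in DMSO. In 20 members (24.7%) it exceeded 10% in at least 1 group, against 123 of 694 other genes at 200 to 3500 TPM (17.7%). The members were not held to that range. RPL39L, RPL22L1 and RPS27L, which count among the 20, averaged 34.2, 177 and 187 TPM over all libraries. Of those 20 members 8 were lower and 12 did not pass, and of the other 61 members 42 were lower, 2 higher and 17 did not pass. RPL21 was the opposite extreme, with 1023, 1018 and 1021 TPM in 4-OHT, against 1205, 1196 and 1204 TPM in DMSO (log2 fold change -0.24, limma adjusted p = 0.000345).

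RPL13, a large subunit protein, was among the wide ones, at 504, 527 and 495 TPM in 4-OHT, against 1057, 581 and 601 TPM in DMSO. All 4-OHT libraries lay below, and DMSO replicate 1 stood far above the rest of its group, so that the log2 fold change was -0.49 (limma adjusted p = 0.0947) and without that library -0.22 (limma adjusted p = 0.0093). RPS15A stood at 1123, 1110 and 706 TPM in 4-OHT, against 753, 1228 and 1199 TPM in DMSO. It had 1 low library in each group, and its log2 fold change of -0.11 did not pass (limma adjusted p = 0.73). RPL9 stood at 857, 836 and 797 TPM in 4-OHT, against 939, 950 and 1442 TPM in DMSO. All 4-OHT libraries lay below, DMSO replicate 3 was far above, and the log2 fold change of -0.39 passed only without that library, at -0.19 (limma adjusted p = 0.0144). RPL15, at 772, 549 and 594 TPM in 4-OHT, against 645, 763 and 685 TPM in DMSO, overlapped through 4-OHT replicate 1. Without it the log2 fold change was -0.28 (limma adjusted p = 0.0284), against -0.14 with it (adjusted p = 0.4). RPS26, a small subunit protein that the chaperone TSR2 delivers, stood at 343, 343 and 332 TPM in 4-OHT, against 494, 522 and 353 TPM in DMSO. Its groups did not overlap, and DMSO replicate 3 lay close to 4-OHT. The lower call (log2 fold change -0.40, limma adjusted p = 0.043) was lost on leaving out any library but that one, at limma adjusted p of 0.0878 to 0.126. It was also lost with median-of-ratios scaling (limma adjusted p = 0.125), without a filter (limma adjusted p = 0.176) and without a variance trend (limma adjusted p = 0.0779). Without DMSO replicate 3 the log2 fold change was -0.58 (limma adjusted p = 0.000193). RPL13, RPS15A, RPL9, RPL15, RPS26 and RPL21 were named after their values were seen.

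**Figure D5:**
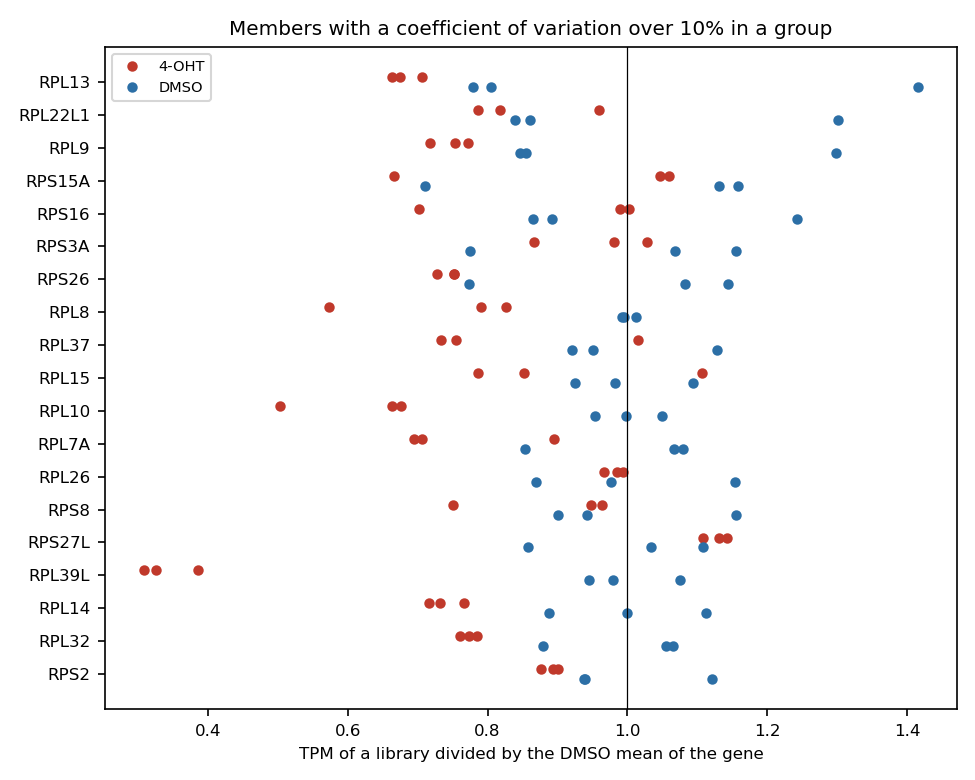
TPM of each library divided by the DMSO mean of the gene (x axis) for 19 of the 20 members whose coefficient of variation exceeded 10% in a group, 4-OHT above DMSO in each row. RPL13 has 1 DMSO library far right of the others, and RPS15A has 1 low library in each group.

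Processed pseudogenes are many for this family, and reads can be split between them and the parent. The table held 1131 numbered pseudogene entries of 76 members, which summed to 3740, 3769 and 3859 TPM in 4-OHT, against 4372, 4292 and 4434 TPM in DMSO. Their sum fell by 13.2%, close to that of the members. They added up to over 10% of the parent's level in 9 members. For RPL41, the shortest member, they reached 68.9%, with mean sums of 1267 TPM in 4-OHT and 1501 TPM in DMSO. RPL41 itself did not pass, at 1745, 2004 and 1965 TPM in 4-OHT, against 1952, 2186 and 2208 TPM in DMSO (limma adjusted p = 0.107). With its pseudogene entries added it was called lower, at -0.19 (limma adjusted p = 0.0332). For RPL23A they came to 22.9%, with mean sums of 309 TPM in 4-OHT and 280 TPM in DMSO. RPL23A was called lower as deposited (log2 fold change -0.12, limma adjusted p = 0.0191), and with its pseudogene entries added it was not (-0.07, limma adjusted p = 0.133). When pseudogene entries were added to their parents, 49 of the 50 lower calls were kept, with RPL23A lost and RPL41 gained. ST5, on the strand opposite RPL27A, was higher in 4-OHT (151 ± 10.3 TPM against 68.7 ± 2.01 TPM in DMSO), so its reads cannot be told from those of RPL27A where the strand was not used.

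Genes around the ribosome moved less uniformly. Of the 4 ribosomal protein genes outside the symbol rule, RPL36AL was lower (log2 fold change -0.18, limma adjusted p = 0.0103) and the others, FAU and RACK1 among them, did not pass. With median-of-ratios scaling RPL36AL was at -0.06 (limma adjusted p = 0.274), so that none of the 4 was called. Of 18 other mRNAs known to carry a terminal pyrimidine tract, 5 were lower (27.8%, near the 29.9% over all genes) and 1 higher (5.56%), with a median log2 fold change of -0.06, against -0.19 for the ribosomal protein genes. The 5 were the elongation factor EEF1A1 (-0.45), EEF1D (-0.30), the nucleolar protein NPM1 (-0.45), the splicing factor HNRNPA1 (-0.97) and NACA (-0.27), which meets nascent chains, and VIM was the higher gene (0.15), though not called with quantile normalization. Of 12 genes of mTORC1 control, MTOR (0.26), RPS6KB1 (0.35), RPS6KB2 (0.28) and EIF4E (0.52) were higher, and RHEB, which activates mTORC1, was lower (-0.75), so that 33.3% of the list was higher and 8.33% lower, against 19.8% and 29.9% over all genes. LARP1 did not pass, at -0.06 (limma adjusted p = 0.342). Of 11 chaperones and importers of ribosomal proteins, TSR2 (-0.32), which escorts RPS26, NACA, and the importins IPO5 (-0.32) and IPO9 (-0.41) were lower, and BCCIP (0.28) was higher. These shares, 36.4% lower and 9.09% higher, stand beside 29.9% and 19.8% over all genes. These lists were chosen for their known roles, and their differences from the ribosomal protein genes were not tested.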

How the data were processed

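Bulk RNA-seq was made from 1 µg of total RNA with the KAPA RNA HyperPrep kit, per the labels' protocols. The values are TPM as deposited by the authors, by gene symbol, in 3 libraries of 4-OHT and 3 of DMSO. Trim Galore 0.6.6, STAR, StringTie and GRCh38 are named, per the submitters' processing notes. Neither the annotation nor whether counting used strand is stated in the labels or the file, and TPM keep no read depth. The deposited column of DMSO replicate 3 held 1 value below 0 among its TPM (unit "other"), for a gene outside the members, which was set to 0.

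Genes that averaged at least 1 TPM were compared with limma 3.58.1 (R 4.3.3; lmFit, eBayes with trend), 2-sided, on log2(TPM + 1), and p-values were adjusted over all 15272 genes tested. Paralogues were set against parents by an exact permutation test. Positions come from GENCODE 29 and sequences from RefSeq (GRCh38.p14). The members, lists and alternatives were chosen with earlier results of these data known. Genes named were the paralogues and parents, the 6 largest decreases and up to 6 increases among calls, the 3 highest of each subunit and a set of known roles. Some of these genes are not reported here, but they count in all totals. Library totals, replicate spread and the fit were checked, the fit also on simulated data. Tables were made with pandas 2.3.3 and numpy 2.4.6 in Python 3.11.15, plots with matplotlib 3.10.9 and alignments with Biopython 1.88.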

Additional observations from a re-analysis of the deposited data

How the results depend on the processing

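The 50 lower calls became 19 with median-of-ratios scaling, 14 for the large and 5 for the small subunit. The 2 higher calls became 6 with that scaling, 1 without a filter and 0 without a variance trend, and leaving out a library gave 0 to 4. For the large subunit, the 2 higher calls became 1 without a filter, 0 without a variance trend, and 0 to 2 when leaving out a library. For the small subunit, the 0 higher calls (limma, unadjusted p under 0.05 also 0) became 3 with median-of-ratios scaling, 1 with quantile normalization, and 0 to 2 when leaving out a library. The 2 calls came without DMSO replicate 3. Median log2 fold changes became -0.07 (all members), -0.08 (large) and -0.05 (small) with median-of-ratios scaling, and -0.13, -0.15 and -0.11 with quantile normalization. The summed level in 4-OHT over DMSO was 0.866 as deposited and 0.942 with median-of-ratios scaling. The difference of RPL22L1 and RPL22 was -0.02 to 0.26 when leaving out a library.

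Among 30 named genes in 15 alternatives, 385 values kept their direction and side of the threshold, 48 lost the call, 4 gained it and 13 changed sign. Those 13 belong to genes without a call. With median-of-ratios scaling RPL26 was 0.10, RPS27 0.01, RPS27A 0.00, RPS19 0.02, RPS18 0.07 and RPS3A 0.08. With quantile normalization RPL26 was 0.09 and RPS3A 0.00. Without DMSO replicate 3, RPL22L1 was 0.00, RPL26 0.09 and RPS3A 0.07, and RPS3A was 0.03 without 4-OHT replicate 3 and 0.01 without DMSO replicate 2. Over all libraries left out in turn, RPL22L1 ranged between -0.31 and 0.00 and RPS3A between -0.22 and 0.07. Why these values moved was not tested.

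The groups share replicate numbers, and the deviations of same-numbered libraries correlated at 0.05, 0.01 and 0.01. Those of differently numbered libraries correlated at -0.06 to 0.05. Deviations from a group's own mean cancel out within the group, so these correlations depend on one another. Whether the numbers pair the libraries was not tested. With the replicate number as a block, 47 members were lower (32 large, 15 small) and 2 higher, and 4-OHT replicate 3 correlated best with DMSO replicate 2 (0.05), not with its own number. Read depth is unknown, so the counting error behind each TPM could not be given.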
